A study of Mus musculus with 4 samples.

Results

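Focal adhesions are the sites where a cell's integrins, the receptors for the basement membrane, are tied to the actin cytoskeleton. The adaptors and kinases of these sites were taken as a list of 37 genes, and a gene was kept where its symbol was a row of the deposited expression table with a mean normalized count above 0. All 37 were found, of 17044 genes with a mean above 0 and 24421 genes in the table. The rule uses no difference between the groups.

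The RNA came from bulge hair follicle stem cells (HF-SCs) of mouse back skin, isolated by FACS as live cells with high H2BGFP, CD34 and α6 integrin and without Sca1. There were 2 groups of 2 libraries, Ctrl and miR-205 inducible, both from sex-matched mice labelled C57BL/6 and carrying a K14-H2BGFP allele that marks keratin-14 cells. In the inducible mice a pTRE2-miR-205 transgene, made in FVB mice and driven by Krt14-rtTA in keratin-14 cells of the skin, was switched on by doxycycline chow for 2 d, from postnatal day 42 to 44. The labels call the Ctrl mice untreated, whereas the protocol has mice of both groups fed doxycycline. The labels number the 2 replicates of a group without naming the animals.

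The deposited table gives for each gene the authors' mean normalized count over the 4 libraries, that is, reads per gene divided by a size factor for depth and averaged. It has no column for a library or a group. The mean was deposited with 15 digits, and for most genes these digits fit only 1 set of 4 whole read counts, so the counts of each library were recovered for 16022 genes and for 26 of the 37 members. The columns used here do not tie these libraries to the groups, so they are called 1 to 4 by rising depth, with size factors of 0.716, 0.966, 1.18 and 1.24. No comparison of miR-205 inducible with Ctrl was made. A difference between libraries can come from the groups or from the spread between replicates, and these cannot be told apart here. Recovered totals ran from 3490450 to 6190640 reads. They leave out every gene with a mean above 2600, so they are lower than the full depth. All 12 genes of the HF-SC marker list had a mean above 0, with a median mean of 9274 and Krt15 at 119883. Their means ran from 590 for Tcf7l1 and 624 for Tcf7l2 to 146090 for Krt5. Cd34 and Itga6 of this list were also used in the sort, and Krt14 is tied to it through the K14-H2BGFP allele. The study used Krt5 and Krt14, also in this list, as markers of epithelial cells. Library 2 stood apart from the others in melanocyte and suprabasal markers. The summed level of the 5 melanocyte markers was 342, 2020.0, 691 and 843 in libraries 1 to 4, and that of the 4 recovered suprabasal markers was 2319, 5261, 2855 and 2563.

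At a focal adhesion, talin binds the tail of an integrin β subunit together with a kindlin, and vinculin and tensins couple this link to actin. Focal adhesion kinase (FAK) and SRC then phosphorylate paxillin and CAS scaffolds, which recruit CRK and GIT proteins and so Rac signalling. A second link is formed by ILK with PINCH and parvin, and LIM proteins such as zyxin arrive where the link is under tension and guide actin assembly through Ena/VASP proteins. In skin, integrin adhesion anchors basal keratinocytes and bulge stem cells to the basement membrane.

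The induced agent is a miRNA, so its sequence and its matches among the members are shown first. The mature mmu-miR-205-5p is encoded at chr1:193507503-193507524 on the minus strand (RefSeq, GRCm38.p6), and the capitals mark its seed, bases 2 to 8.
mmu-miR-205-5p: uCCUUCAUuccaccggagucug
The heptamer ATGAAGG pairs with this seed. In the longest annotated protein-coding 3′UTR of each gene, searched on the sense strand, it occurred in 9 of the 37 members (24.3%) and in 1678 of 15279 genes with a mean above 0 (11.0%). The members' 3′UTRs were longer, with a median of 1745 bases against 1018 bases, and length was not accounted for. The 9 genes are Tln2, Tns3, Tgfb1i1, Lims1, Lims2, Parva, Parvb, Lpp and Cav1. The heptamers are shown in capitals with 11 bases on each side, for 7 of these genes, since their levels are described beside their paralogs below. All lie in the last exon of the transcript searched, within its 3′UTR, with NCBIM37 coordinates of the heptamer from the GENCODE vM1 annotation.
Tln2, chr9:67066798-67066804, minus strand, exon 59 of 59: acctctaacaaATGAAGGcaaggggccat
Tln2, chr9:67065630-67065636, minus strand, exon 59 of 59: accagaacctgATGAAGGaattagggtgg
Tns3, chr11:8333313-8333319, minus strand, exon 31 of 31: ggggagaagggATGAAGGgaaagatcaag
Tgfb1i1, chr7:135397347-135397353, plus strand, exon 12 of 12: ataaatagcagATGAAGGcaggcatggag
Lims1, chr10:57885669-57885675, plus strand, exon 10 of 10: aaaacattttaATGAAGGcttttttattt
Parva, chr7:119734284-119734290, plus strand, exon 13 of 13: ttgcataattaATGAAGGatcatagtttt
Lpp, chr16:24990023-24990029, plus strand, exon 8 of 8: tttcctcatgaATGAAGGgtagaagagtt
Cav1, chr6:17289849-17289855, plus strand, exon 2 of 2: tgtttaggggcATGAAGGaacgtttttaa
A heptamer match is a description of the sequence. Binding of miR-205 to mRNAs, which the study measured by CLEAR-CLIP, was not analysed here. The second Tln2 match and those of Parva and Cav1 are followed by an A, which lies opposite the first base of the miRNA.

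Focal adhesion genes were among the more highly expressed genes of these cells. The median of the 37 means was 1372 normalized counts, against 117 for all 17044 genes, and the median member stood at percentile 89.8. A mean over 50 was reached by 35 of 37 members, and 10342 of the 17044 genes reached it. The 2 members below it were Parvb, at 14.7, and Lims2, at 10.1. Since a long transcript gives more reads than a short one at the same abundance, levels of different genes are compared per kb of the longest protein-coding transcript, on which scale the members' median was 382 against 55.3 for all genes with a length. With the shortest coding transcript these medians were 723 and 95.7, and with merged exons 283 and 39.5, so a level per kb and some orders of genes depend on the length chosen. These are bulk samples, so fewer cells of a type and less RNA per cell cannot be told apart.

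**Figure D1:**
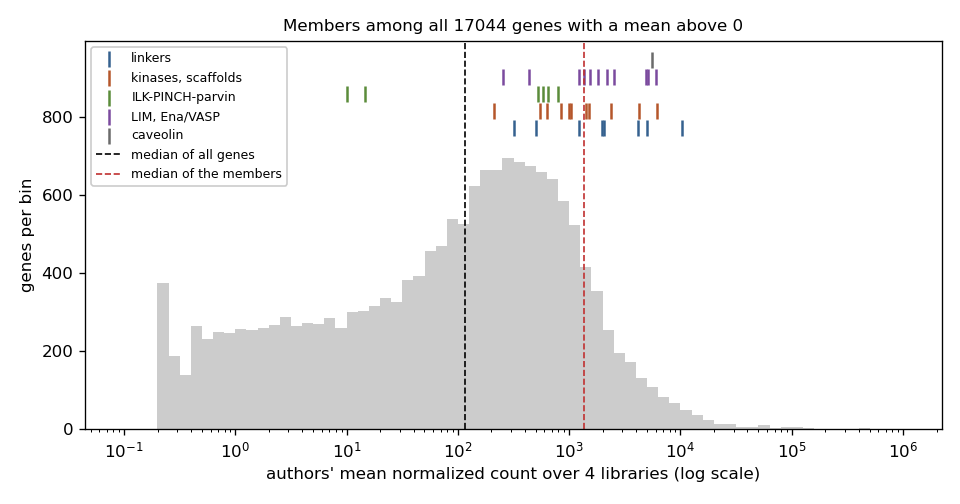
Histogram of the authors' mean normalized count (log axis) of all 17044 genes with a mean above 0, with a tick for each of the 37 members in a row for its role and dashed lines at the medians. The members' median of 1372 lies to the right of the 117 of all genes, and Parvb and Lims2 are the members to the left of that line.

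Per kb, the 5 highest members were Csrp1 (2700.4), Cav1 (2018), Zyx (1947), Nedd9 (1352) and Pdlim5 (1288). Csrp1 is a LIM-only protein of actin filaments, Cav1 coats the membrane pits called caveolae, Zyx is the tension-sensitive zyxin, Nedd9 is a CAS scaffold and Pdlim5 is a PDZ-LIM adaptor. The 5 lowest were Parvb (3.88), Lims2 (6.01), Tln2 (26.3), Tgfb1i1 (69.7) and Fblim1 (82.1). For 4 of these 5 a paralog in the list was higher per kb by at least 16.5-fold, and for Fblim1, the migfilin gene, the highest listed relative was Zyx. With merged exons Pdlim1 stood in place of Pdlim5 among the 5 highest. With the shortest coding transcript the 5 highest were Cav1, Tln1, Tns1, Pdlim5 and Pdlim7. Parvb, Lims2, Tln2 and Tgfb1i1 were the 4 lowest with each of these 3 lengths, and the next lowest was Parva with merged exons and Lpp with the shortest transcript.

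Of the integrin-actin linkers, the means ranged from 319 to 10224, with a median of 2017. Vinculin, Vcl (chr14:21748655-21852895, plus strand), had a mean of 5009, or 958 per kb. Exons on the other strand, of Ap3m1, overlap 39.9% of its longest transcript, and the strand setting of the read counting was not given. Talin was nearly all Tln1 (chr4:43544391-43575563, minus strand), with a mean of 4132 and 94.9% of the talin level per kb. Tln2 (chr9:67064894-67407510, minus strand), the talin with the pair of seed matches, had a mean of 319. Its normalized counts were 306, 318, 304 and 347 in libraries 1 to 4, and the 95% Poisson intervals of the highest and lowest library overlapped.

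Kindlins, which activate integrins beside talin, were divided between the epithelial Fermt1 (chr2:132729915-132771772, minus strand) and the more widely expressed Fermt2 (chr14:46078467-46149793, minus strand). Fermt1 stood at 1255, 1241, 1247 and 1198 normalized counts in libraries 1 to 4. This was the narrowest spread of any recovered member with a mean over 200, 1.05-fold between highest and lowest. Fermt2 stood at 568, 436, 433 and 596. Libraries 1 and 4 were higher than libraries 2 and 3 for Fermt2, 1.37-fold from end to end, with the intervals of the extreme libraries apart. The share of Fermt1 in the kindlin level per kb was 57.4%, 62.3%, 61.8% and 54.9% in libraries 1 to 4, but with the shortest coding transcripts Fermt2 held the larger share, 73.0% of the means. The third kindlin, Fermt3, is a gene of blood cells and is not in the list. Its normalized counts were 12.6, 27.9, 39.9 and 17, and the summed level of the 6 recovered blood cell markers was 536, 979, 1255 and 604, highest in library 3 for both.

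Tensins bind integrin tails and actin. Tns1 (chr1:73956805-74171021, minus strand) had the highest mean of all members, 10224, which is 1026 per kb of its long transcript. Per kb it was exceeded by Tns4, a short tensin without the actin-binding part that is not in the list, at 1986 per kb. Tns4 made up 53.7% of the tensin level per kb, Tns1 27.7%, Tns2 11.2% and Tns3 7.45%. With the shortest coding transcripts Tns1 led instead, with 73.5%. Tns2 (chr15:101930909-101946832, plus strand) stood at 2182, 1859.6, 1697 and 2149 normalized counts in libraries 1 to 4. Libraries 1 and 4 were the higher ones for Tns2. Tns3 (chr11:8331655-8564538, minus strand) stood at 1968, 1971, 1948 and 2362, with library 4 above the other 3, which lay close together. The counts of Tns3, and of Crk and Enah below, were the only solution within 2-fold of the mean but not within 3-fold. By chance 0.35 solutions were expected within 2-fold for Tns3 and 0.767 each for Crk and Enah, so these counts are less certain.

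**Figure D2:**
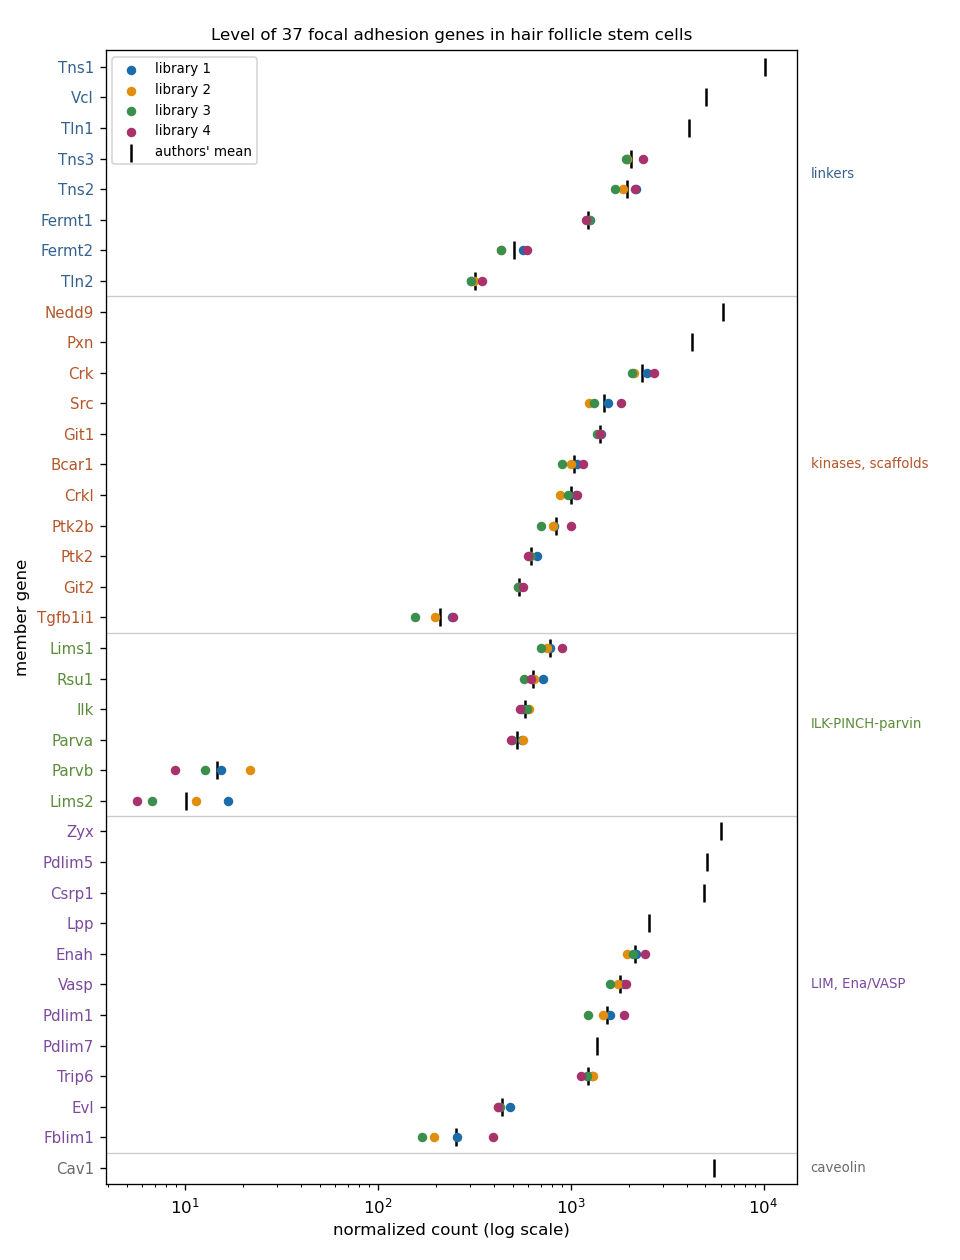
Normalized count (log axis) of each of the 37 members, with the authors' mean over 4 libraries as a black bar and the recovered value of each of libraries 1 to 4 as a coloured point, for the 26 members where it was recovered. Members are grouped by role and sorted by mean, and the points of a member lie close to its mean compared with the range between members, from 10.1 to 10224.

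The kinases and phosphotyrosine scaffolds had a median mean of 1037 and a median of 327 per kb. FAK is encoded by Ptk2 (chr15:73035535-73253621, minus strand) and its calcium-responsive relative PYK2 by Ptk2b (chr14:66772094-66899889, minus strand). Ptk2 stood at 666, 616, 617 and 603 normalized counts in libraries 1 to 4, and the intervals of its extreme libraries overlapped. Ptk2b stood at 821, 809, 707 and 1008, with library 4 the highest and library 3 the lowest, 1.43-fold apart. Per kb of the longest coding transcript Ptk2b held 58.1%, 59.6%, 56.3% and 65.3% of their sum. Their order turned with merged exons, where Ptk2 held 54.0%, 52.4%, 55.8% and 46.4%, so neither is called the more abundant. Src (chr2:157244180-157297598, plus strand), the founding SRC family kinase, stood at 1572, 1252, 1328 and 1824. For Src, libraries 1 and 4 were higher than libraries 2 and 3, and the extremes were 1.46-fold apart. Src was compared with Yes1 and Fyn only, and other SRC family kinases were not looked up. Of the summed level per kb of these 3, Src held 61.4%, 57.6%, 58.8% and 63% in libraries 1 to 4. With the shortest coding transcripts Fyn had the largest share of the 3, 45.9%.

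Paxillin, Pxn (chr5:115956685-116005996, plus strand), had a mean of 4263 and 93.3% of the paxillin family level per kb. Tgfb1i1 (chr7:135390326-135398287, plus strand), which encodes the paxillin relative HIC-5, made up 5.66%. Tgfb1i1 stood at 243, 198, 157 and 247 normalized counts in libraries 1 to 4, 1.57-fold from lowest to highest. Libraries 1 and 4 were again the higher ones. HIC-5 is also known from smooth muscle and fibroblasts, and the summed level of the 6 recovered smooth muscle markers was 243, 291, 294 and 341. That of the 4 recovered fibroblast markers was 619.8, 1115, 807 and 1075, and the part of either cell type in the Tgfb1i1 values was not tested. The leukocyte paxillin Lpxn was at 9.77, 20.7, 50.9 and 6.47, highest in library 3, as the blood cell markers were.

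CAS scaffolds are docking proteins that SRC phosphorylates. Nedd9 (chr13:41405285-41582689, minus strand) had a mean of 6169.9 and held 63% of the CAS family level per kb. Efs, outside the list, held 21.6%, Bcar1 15.2% and Cass4 0.161%. Bcar1 (chr8:114234367-114267748, minus strand), the gene of p130Cas itself, stood at 1082, 1007, 904 and 1155 normalized counts in libraries 1 to 4. Its highest library was 4 and its lowest 3.

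The adaptors that bind phosphorylated paxillin and CAS were Crk (chr11:75492761-75520410, plus strand) and Crkl (chr16:17452080-17486348, plus strand). Crk stood at 2485, 2124, 2083 and 2721 normalized counts in libraries 1 to 4, and Crkl at 1067, 881, 966 and 1086. Both were higher in libraries 1 and 4 than in libraries 2 and 3. Their proportion was nearly fixed, with Crk at 67.7%, 68.5%, 66% and 69.3% of their sum per kb. The GIT proteins, which carry the Rac exchange factor β-PIX to paxillin, were steadier. Git1 (chr11:77307064-77321288, plus strand) stood at 1443, 1422, 1367 and 1423, and Git2 (chr5:115177416-115225526, minus strand) at 542, 532, 533 and 567. Neither gene had extreme libraries with separate intervals, and Git1 held 79.2%, 79.3%, 78.6% and 78.2% of their sum per kb. With the shortest coding transcripts Git2 held the larger share, 65.8% of the means.

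The ILK-PINCH-parvin complex was the lowest of the role groups with more than 1 gene, with a median mean of 553 and a median of 150 per kb. With the shortest coding transcripts its median, 547 per kb, was above the 431 of the kinases and scaffolds. In each of its paralog pairs 1 gene was expressed and the other was near 0. PINCH was Lims1 (chr10:57786214-57887439, plus strand), at 782, 759, 699 and 907 normalized counts in libraries 1 to 4. Lims2 was at 16.8, 11.4, 6.79 and 5.66, from raw counts of 12, 11, 8 and 7, so its libraries could not be told apart at this depth. Lims1 made up 94.8%, 96.3%, 97.6% and 98.4% of the PINCH level per kb. Parvin was Parva (chr7:119571019-119735206, plus strand), at 563, 564, 497 and 488, with the intervals of the extreme libraries overlapping. Parvb (chr15:84062473-84146118, plus strand) was at 15.4, 21.7, 12.7 and 8.9, from raw counts of 11, 21, 15 and 11, and the blood cell parvin Parvg had a mean of 6.24. Parva made up 95.4%, 93.2%, 94.7% and 97.1% of the parvin level per kb.

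The pseudokinase Ilk (chr7:112885106-112891439, plus strand), the centre of the complex, stood at 563, 605, 596 and 546 normalized counts in libraries 1 to 4. Its libraries differed by 1.11-fold at most, with overlapping intervals. Annotated exons of Rrp8 and Taf10 on the other strand cover 100% of the longest Ilk transcript, so reads of the 3 genes can be told apart only by strand, and Ilk is uncertain. Rsu1 (chr2:12998594-13193058, minus strand), which binds PINCH, stood at 722, 647, 573 and 624. Library 1 was the highest for Rsu1 and library 3 the lowest.

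Among the LIM, PDZ-LIM and Ena/VASP proteins the median was 717 per kb, the highest of the role groups other than caveolin with its 1 gene. Zyx (chr6:42299827-42310145, plus strand) had a mean of 6039.9 and held 52.8% of the level per kb of the 7 zyxin relatives measured. Trip6 (chr5:137751127-137755632, minus strand), a close relative, stood at 1291, 1303, 1222 and 1132 normalized counts in libraries 1 to 4, with library 2 the highest and library 4 the lowest. Lpp (chr16:24393436-24992662, plus strand) had the tenth highest mean of the members, 2547, but per kb of its 15647-base transcript it came to 163 and rank 28. Fblim1 (chr4:141131977-141162011, minus strand), whose protein migfilin links kindlin and filamin, stood at 257, 197, 169.7 and 395. This was the widest spread of the 24 recovered members with a mean over 200, 2.33-fold, with libraries 1 and 4 above libraries 2 and 3. The lower bound of library 4 was 360.4 and the upper bound of library 3 was 195 (exact 95% Poisson intervals).

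The Ena/VASP proteins, which elongate actin filaments at zyxin, were all expressed. Vasp (chr7:19842278-19857166, minus strand) stood at 1899.9, 1766, 1602 and 1942 normalized counts in libraries 1 to 4 and Enah (chr1:183834576-183950111, minus strand) at 2175, 1961, 2116 and 2422. Evl (chr12:109792930-109926723, plus strand) was lower, at 486, 420.1, 428 and 422, and exons of Degs2 on the other strand overlap 22.2% of its longest transcript. Enah had the higher mean and Vasp the higher level per kb, with Vasp at 54%, 55%, 51.1% and 53.6% of the family's level per kb and Evl at 14%, 13.3%, 13.9% and 11.8%.

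In the PDZ-LIM family, which binds α-actinin, Pdlim5 (chr3:141903568-142058630, minus strand) had a mean of 5121 and 34.7% of the level per kb of the 6 genes measured. Pdlim1 (chr19:40296731-40346106, minus strand) held 27.8%, Pdlim7 (chr13:55597156-55615037, minus strand) 19.3% and Pdlim3, outside the list, 14.6%. With merged exons Pdlim1 led, with 36.1%. Pdlim1 stood at 1594, 1479.8, 1228 and 1903 normalized counts in libraries 1 to 4, 1.55-fold from library 3 to library 4. Csrp1 (chr1:137616638-137648809, plus strand) had a mean of 4936 and 94.5% of the CSRP level per kb. Csrp2 held the rest and Csrp3, a gene of striated muscle, was listed at 0. Cav1 (chr6:17256335-17291452, plus strand), a SRC substrate found beside focal adhesions, had a mean of 5542 and 75.1% of the caveolin level per kb, with Cav2 holding the rest and the muscle gene Cav3 listed at 0.

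**Figure D3:**
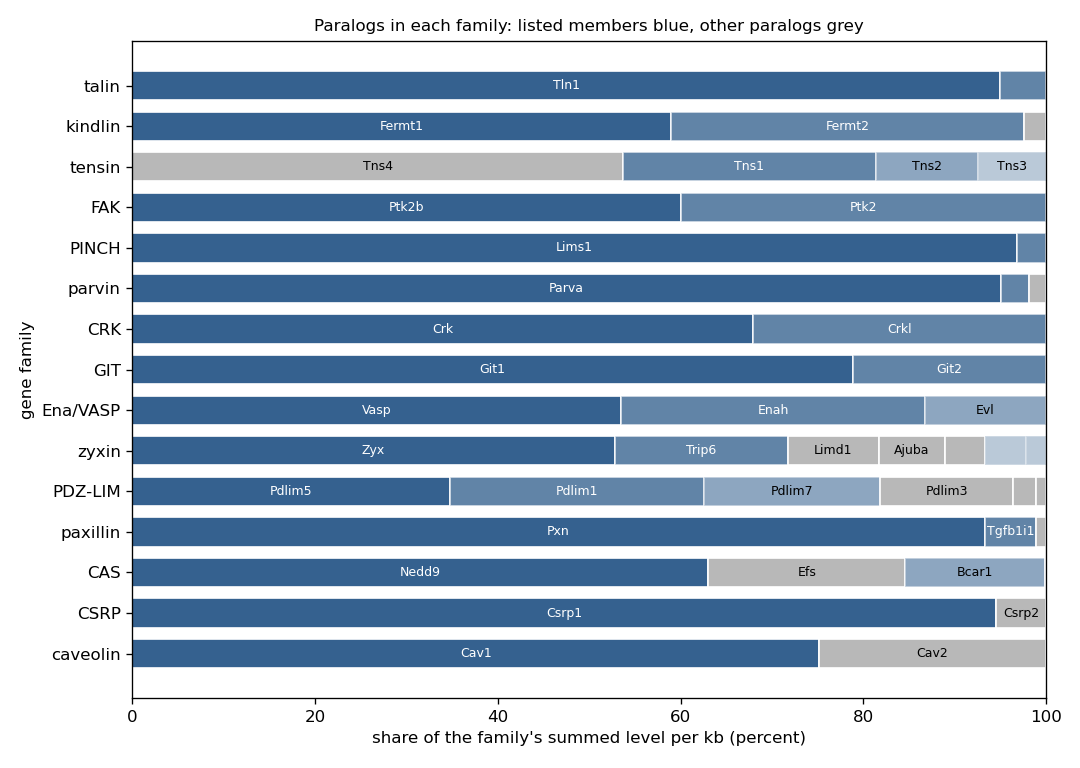
Share of each gene in the summed level per kb of the longest coding transcript in its family, in percent, for the 15 families other than the SRC kinases, with the listed members in blue and paralogs outside the list in grey; shares under 5.5% carry no name. A single gene held over 90% of the talin, PINCH, parvin, paxillin and CSRP level per kb, whereas the kindlin, FAK and Ena/VASP levels were divided.

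Between libraries the members spread about as much as other genes in the same wide range of means. For the 24 recovered members with a mean from 200 to 2600, the highest library exceeded the lowest by a median of 1.23-fold, with a range from 1.05 to 2.33. The median was 1.25-fold for all 6032 recovered genes with such a mean. The exact 95% Poisson intervals of the extreme libraries, which cover counting error only, were apart for 16 of the 24 members. They were apart for 67.5% of all 6032 genes, so the members' count is near this background. Levels within this range were not matched. A mean of 1000 to 2600 was held by 11 of the 24 members and by 1431 of the 6032 genes. Counting error depends on the level, so the members and the background are not fully alike in it. A ratio over 1.3 was seen in 7 of 24 members (29.2%) and in 37.6% of all 6032 genes. These 7 were Fblim1, Tgfb1i1, Pdlim1, Src, Ptk2b, Fermt2 and Crk, and library 4 was the highest in all of them. They were picked by their spread, and the highest library was not counted over all genes with such a ratio. Over the 24 members, library 4 was the highest for 15 and library 3 the lowest for 14, whereas over all 6032 genes they were so for 34.3% and 25.3%. The summed blood cell and suprabasal markers given above were both lower in libraries 1 and 4 than in libraries 2 and 3. This did not hold for the summed fibroblast, smooth muscle, endothelial, melanocyte, sebaceous and neural markers, where library 4 exceeded library 2 or 3. The part of any of these markers in the members' spread was not tested.

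**Figure D4:**
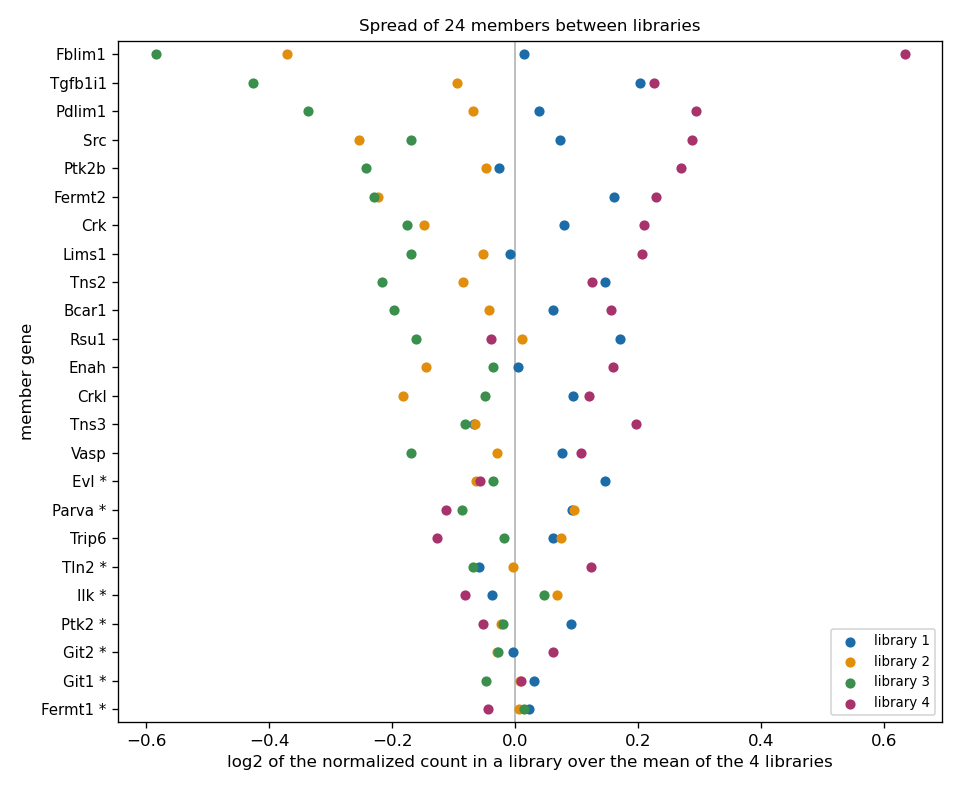
Log2 of the normalized count in each of libraries 1 to 4 over the mean of the 4, for the 24 recovered members with a mean from 200 to 2600, sorted by the ratio of the highest to the lowest library; an asterisk marks genes whose extreme libraries had overlapping 95% Poisson intervals. Values run from -0.58 to 0.63, both for Fblim1, and points of library 4 lie to the right and of library 3 to the left for most genes with a wide spread.

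Integrin subunits, downstream signalling genes and relatives of the members were measured too. Which of these integrins the members bind in these cells was not examined. All 20 integrin subunits of the list had a mean above 0, and 13 had a mean over 50. Of all 17044 genes with a mean above 0, 10342 had a mean over 50, a share close to that of the subunits. The highest were Itgb4 at 17204, Itga6 at 12910.2, Itgb1 at 8116 and Itga3 at 4047. These encode the subunits of the α6β4 and α3β1 laminin receptors of basal keratinocytes, and α6 was also used in the sort. All 25 downstream genes had a mean over 50, with a median of 1304 and a median percentile of 89.2. They included Actn4 at 11492, Flna at 20281, Rac1 at 3506 and Rhoa at 3191. Of the 18 family members outside the list, 11 had a mean over 50, near the share of all genes, with a median of 238. Their summed recovered level, over 15 genes, ran from 8613 to 9064 in the 4 libraries.

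Some members are also genes of other cell types, and markers of these had means above 0 too. A mean over 50 was reached by 10342 of all 17044 genes, so passing it does not by itself show a cell type. Among smooth muscle markers 4 of 7 had a mean over 50, with Des at 7.34 and Actg2 at 3.39. Smtn was far higher, at 4199.9. Endothelial markers passed 50 in 2 of 6 cases, and their summed level ran from 123 to 240. For blood cells it was 5 of 7, with Cd74 the highest at 2744 and Cd3e at 9.52. Fibroblast markers passed it in 5 of 7 cases, with Col1a1 at 5186 and Pdgfra at 39.5. Sebaceous markers did so in 4 of 5 and neural markers in 3 of 5 cases, with summed recovered levels of 387 to 710 and 581 to 913. Among the markers with recovered counts, Plin5 had no read in 3 of the 4 libraries and Des none in library 1. The part of these cells in the members' levels was not tested.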

How the data were processed

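Total RNA of RIN above 8 was made into NEBNext Ultra Directional libraries and sequenced as paired-end reads on a NovaSeq. The authors aligned with Hisat2 2.1.0 to mm10 (named NCBI37/mm10 in the methods), converted with SAMtools 1.3.1, counted with HTSeq and used DESeq2 at default settings; for the annotation, the strand setting and the versions of HTSeq and DESeq2 the entry is "not given in the sources used here". Per gene, the authors deposited a signal, the mean over 4 libraries of the count divided by the size factor. Columns with values of a sample numbered 0. The table's other columns hold the authors' own comparison (log2 fold change, its standard error, Wald statistic, p-value and adjusted p-value) and were not used.

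What 1 read adds to the mean was read from the smallest means in the table, which repeat in many genes, separately for each library. All sets of 4 whole counts whose weighted sum matched the deposited digits were then listed, with each library within 2-fold of the mean for means of 100 or more, or at any level where no such set existed and the mean was under 1000. A gene was recovered where exactly 1 set existed and at most 1 was expected by chance. This held for all genes with a mean under 1000, where none of the shifted means used as decoys had a solution, and 91.6% of genes with a mean of 1000 to 2600 had exactly 1 solution (28.7% of decoys had any). Higher means were not tried, which left 9 members with the mean alone, and Lpp and Pdlim7 had 2 solutions each. In 10 simulations of whole counts, a single solution was the simulated one for 100% of 4000 genes with a mean under 1000 and for 99.6% of 857 of the 1000 genes tried with a mean of 1000 to 2600 (98.6% in the lowest simulation), a range that holds 11 recovered members. For genes made 3-fold higher in 2 libraries it was 93.2% (79.7% in the lowest simulation), and 74.0% of these genes had a single solution. Apart from genes changed on purpose, the simulated counts varied by counting error only, unlike most genes here. Size factors recomputed from the recovered counts differed from those found by -0.864% to 0.961%.

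Reads summed over the 16022 recovered genes were 3490450, 4561972, 5582022 and 6190640 in libraries 1 to 4. These sums leave out every gene with a mean above 2600, so they are lower than the full depth. For comparison, the deposited means of all genes sum to 13085835 normalized counts. All 37 members are named, with values for paralog families and for the 5 highest and 5 lowest per kb. The members and lists were chosen with earlier results of these data known. Symbols and lengths were matched to GENCODE vM1 on NCBIM37 for 37 of 37 members and 16356 of 17044 genes, and no coordinate was converted. Items withheld for evaluation are left out. The tools were numpy 2.4.6, scipy 1.17.1, sympy 1.14.0, matplotlib 3.10.9 and pandas 2.3.3 in Python 3.11.15. Alternatives were other denominators, thresholds, lengths, normalization and leaving out each library.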

Additional observations from a re-analysis of the deposited data

How the results depend on the processing

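The members' median percentile of 89.8 became 83.6 among genes with a mean over 50, 76.0 among those over 200 and 87.7 per kb. The median level per kb of 382 became 283 with merged exons and 723 with the shortest coding transcript. Leaving a library out can only keep or lower the ratio of highest to lowest library, so only the size of that move is informative. With each library left out in turn, the median of this ratio, 1.23, ranged from 1.16 to 1.22. The number of members with separate intervals, 16, ranged from 12 to 16. Scaling by the recovered total in place of size factors gave 1.21 and 18. A threshold of 10 or 200 in place of 50 gave 37 and 35 members. With means in place of levels per kb, shares of paralogs moved by up to 21.6 percentage points (Pdlim5, from 34.7% to 56.3%), and with a library left out by up to 2.00. Enah and Vasp changed order with the scale, with Enah at 49.2% and Vasp at 40.9% of summed means. A 3-fold window, chosen after seeing the data, left 23 of 26 members with the same counts as the only solution, all but Tns3, Enah and Crk. No paired analysis was possible because the columns used here tie no library to a group or replicate number; the authors' comparison columns were left unused. Depth limits Lims2 and Parvb, with 7 to 21 reads per library.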

Other observations

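Libraries 1 and 4 were the 2 highest for 15 of the 24 recovered members with a mean from 200 to 2600, and for 30.0% of all 6032 genes with such a mean. The other pairs were the 2 highest for 3 members (libraries 1 and 2, 12.3% of all genes), 3 (1 and 3, 12.7%), 1 (2 and 3, 19.8%), 2 (2 and 4, 11.9%) and 0 (3 and 4, 13.3%). For the median member the level over the 4-library mean was 1.04, 0.966, 0.918 and 1.09 in libraries 1 to 4, and for the median of all 6032 genes 1.00, 0.982, 0.988 and 1.01. The libraries were not tied to groups and members share them, so this is a description of 4 libraries. In the same libraries the summed level of the 6 recovered blood cell markers was 536, 979, 1255 and 604. That of the 4 recovered suprabasal markers was 2319, 5261, 2855 and 2563, and both were lower in libraries 1 and 4. The summed markers of the other non-HF-SC cell types were not lower in both of these libraries. The part of any of these markers in the pattern of the members was not tested. Outside the members, Itgb6, an integrin subunit of activated epithelium, stood at 938, 726, 544 and 967 normalized counts in libraries 1 to 4, and Itga2, of the collagen receptor, at 1074, 1133, 931 and 1729.7; these 2 subunits were chosen after their values were seen. Libraries 1 and 4 were the higher ones for Itgb6, and library 4 alone for Itga2. Other subunits went the other way in library 4, with Itgb5 and Itgb8 lowest there, at 1046 and 480. Both were highest in library 1, at 1230 and 639. The summed level of the 15 recovered integrin subunits was 5316, 4938, 4602 and 5824 in libraries 1 to 4.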
